A study of Homo sapiens with 6 samples.

Results

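The genes described here encode the aminoacyl-tRNA synthetases, the enzymes that join each amino acid to its tRNA, together with the scaffold proteins and the partner enzyme that work with them. They were picked by symbol from a table of 58243 genes, by a rule that holds no measured value but was written with earlier results of these data known, and 42 genes met it. Of these, 21 encode synthetases of the cytosol, 17 encode synthetases of the mitochondrion (symbols ending in 2), 3 encode scaffold proteins of the multisynthetase complex (AIMP1, AIMP2 and EEF1E1) and 1, SEPSECS, makes selenocysteine on its tRNA. TARSL2 ends in 2 but belongs with the cytosolic enzymes, and GARS and KARS, which each supply both compartments from a single gene, were counted there too.

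RNA sequencing covered 6 libraries of Hep3B, a line established from a human hepatocellular carcinoma and cultured in DMEM with serum. Cells received si-SNHG17-1, a small interfering RNA against the long noncoding RNA SNHG17 (3 libraries), or si-NC, the control small interfering RNA (3 libraries). All 6 libraries come from the same line, and the knockdown rests on a single small interfering RNA. Nothing in the labels ties the replicates to separate cultures, so the spread behind each p-value may be technical.

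Each synthetase recognises its own amino acid and its own tRNAs, and protein synthesis stops on a codon whose tRNA is not charged. Human cells keep largely separate sets of enzymes for the cytosol and for the mitochondrion, both encoded in the nucleus. In the cytosol, several synthetases are held together with AIMP1, AIMP2 and EEF1E1 in the multisynthetase complex. Many cytosolic synthetase genes are known to be induced by the transcription factor ATF4 when amino acids are short, through a promoter sequence called the C/EBP-ATF response element.

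Total counts ranged from 30207055 to 42271168 per library. Levels are given as CPM, counts scaled to a common library size, after TMM scaling, which corrects for differences in library composition. A gene was called when the quasi-likelihood test of edgeR gave a Benjamini-Hochberg adjusted p under 0.05 over the 18679 genes tested. SNHG17 averaged 8.11 ± 0.139 CPM in si-SNHG17-1 and 23.0 ± 0.789 CPM in si-NC (SD, n = 3 each), a log2 fold change of −1.51 ± 0.12 (SE). The libraries went against their label in 1 respect: the defining genes of liver cells were at or near 0. Of 10 liver markers, none exceeded 1.83 CPM in any si-SNHG17-1 library or 0.955 CPM in any si-NC library, TTR and GPC3 had 0 counts in all 6, and the highest AFP level was 0.214 CPM in si-SNHG17-1 and 0.106 CPM in si-NC. Their summed level was 3.13 to 4.71 CPM in si-SNHG17-1 and 2.19 to 3.32 CPM in si-NC. Epithelial KRT8 was at 508 to 524 CPM in si-SNHG17-1 and 564 to 626 CPM in si-NC. Mesenchymal VIM was at 791 to 889 CPM in si-SNHG17-1 and 663 to 1037 CPM in si-NC. Among the other markers of these types, EPCAM, CDH1 and COL1A2 were at or near 0, while KRT18 and COL1A1, given below, were not. Epithelial EPCAM did not exceed 0.445 CPM in si-SNHG17-1 or 0.599 CPM in si-NC. Epithelial CDH1 did not exceed 0.309 CPM in si-SNHG17-1 or 0.743 CPM in si-NC, and mesenchymal COL1A2 was at 0 in every library. Of 11 markers of other cell types, KRT18 was called lower, at 207 to 234 CPM in si-SNHG17-1 and 279 to 334 CPM in si-NC, and COL1A1 higher, at 96.2 to 116 CPM in si-SNHG17-1 and 80.4 to 85.5 CPM in si-NC. The part of these marker differences in the results below was not tested.

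Of the 21 cytosolic synthetase genes, 12 fell after si-SNHG17-1 and none rose, while of the 17 mitochondrial synthetase genes only MARS2 fell and none rose. Among all genes tested, 5.21% were called lower and 5.25% higher. The median log2 fold change was −0.34 over the cytosolic genes, −0.04 over the mitochondrial genes and −0.00 over all genes tested. All 42 genes passed the filter on low counts. The 12 cytosolic genes that fell, from the largest change to the smallest, charged tRNAs with leucine (LARS), tyrosine (YARS), glutamate and proline (EPRS), methionine (MARS), isoleucine (IARS), threonine (TARS), serine (SARS), phenylalanine (FARSA), cysteine (CARS), glycine (GARS), tryptophan (WARS) and valine (VARS). Abundant genes are called more often: among 2566 genes with at least 100 CPM in si-NC, 16.4% were called lower, and 12 of the 18 cytosolic genes above that level were. Only 1 mitochondrial gene, IARS2, reached that level, so nearly all mitochondrial genes lie where calls are rarer, and the part of level in the contrast of 12 of 21 with 1 of 17 was not tested.

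Summed over the 21 cytosolic genes, the level was 4952, 4945 and 4719 CPM in the si-SNHG17-1 libraries, against 6713, 6240 and 6279 CPM in the si-NC libraries. The si-SNHG17-1 mean was 76.0% of the si-NC mean, and every si-SNHG17-1 library lay below every si-NC library. For the 17 mitochondrial genes the sum was 999.6, 997.9 and 988.5 CPM in si-SNHG17-1 and 1064, 982.0 and 1071 CPM in si-NC. Those groups overlapped, with a si-SNHG17-1 mean at 95.8% of the si-NC mean. CPM are shares of a library, and in a lysate of many cells fewer expressing cells and less RNA per cell cannot be told apart.

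**Figure D1:**
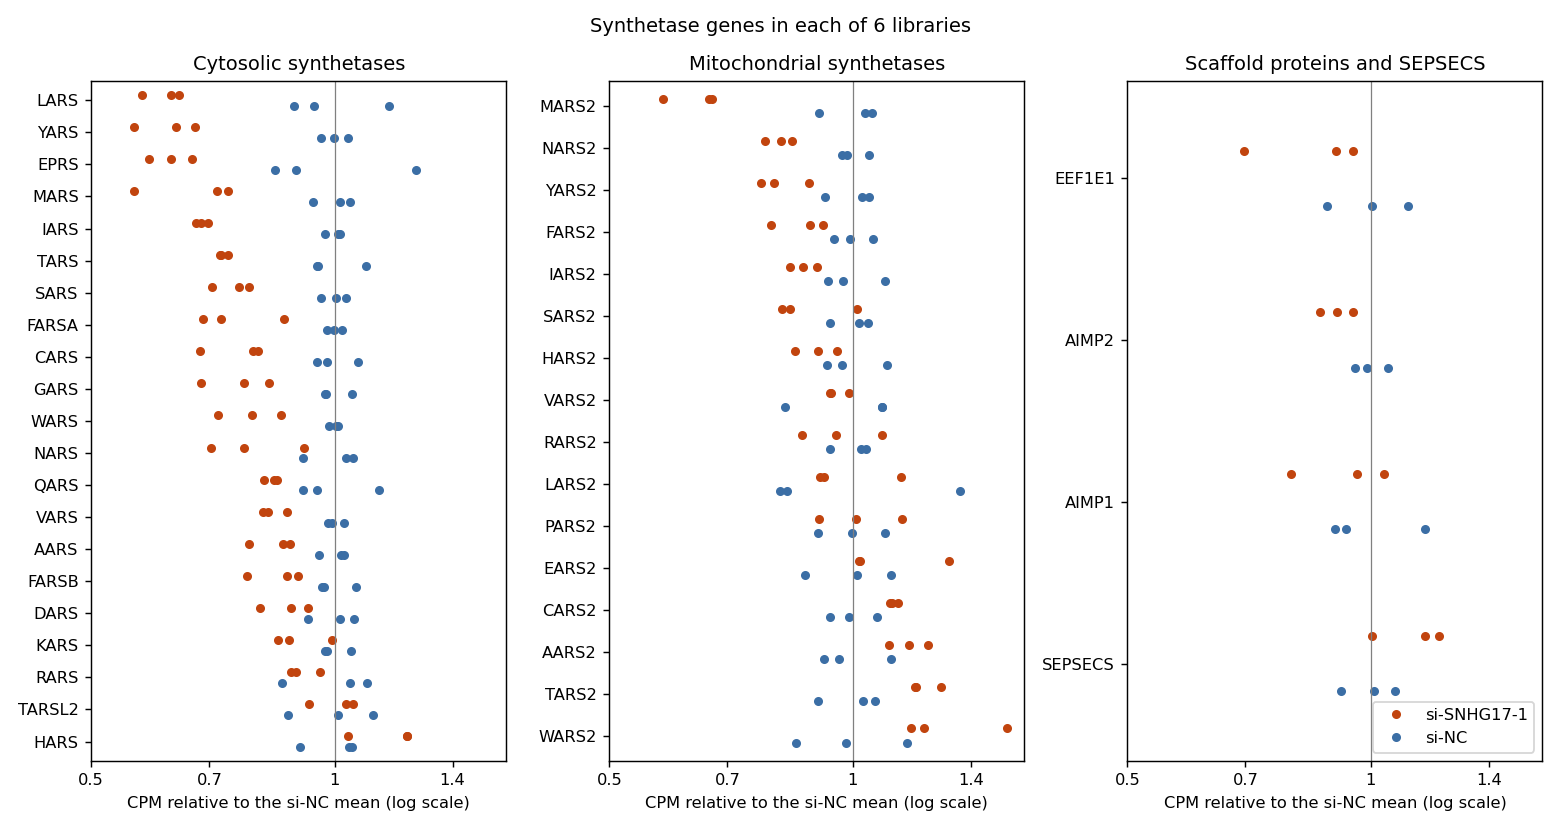
CPM of each synthetase gene in each library, divided by the gene's si-NC mean, on a log scale; every point is 1 of 3 libraries per group. Among cytosolic genes the si-SNHG17-1 points lie left of all si-NC points for 15 of 21 genes, and among the 16 mitochondrial genes drawn for 5, while 3 have them all to the right. Of all genes tested, 17.3% had every si-SNHG17-1 library lower and 16.4% every one higher.

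LARS, leucyl-tRNA synthetase, which is also known as a leucine sensor upstream of mTORC1, showed the largest change. It stood at 156, 140.3 and 152 CPM in the si-SNHG17-1 libraries and at 283, 229 and 216 CPM in the si-NC libraries. The groups did not overlap, and si-NC replicate 1 was the highest library. The log2 fold change was −0.70 ± 0.11 (SE; edgeR adjusted p = 0.0108), or 38.4% lower. LARS is on the minus strand of chromosome 5 (GRCh38, 146113038 to 146182660).

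YARS, tyrosyl-tRNA synthetase, had 175, 185 and 156 CPM in si-SNHG17-1, against 286, 275 and 265 CPM in si-NC. The lowest si-NC library was well above the highest si-SNHG17-1 library, with a log2 fold change of −0.68 ± 0.08 (SE; edgeR adjusted p = 0.00432). The gene lies on chromosome 1 (32775237 to 32818153, minus strand), and its exons share 396 bases with S100PBP on the other strand, which was not called (log2 fold change 0.15, adjusted p = 0.894).

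IARS, isoleucyl-tRNA synthetase, gave 363, 356 and 350.2 CPM in si-SNHG17-1 and 506, 526 and 529 CPM in si-NC. Both groups were tight, and IARS had the smallest adjusted p of the 42 genes (log2 fold change −0.55 ± 0.06 SE, edgeR adjusted p = 0.00262). It lies on chromosome 9 (92210207 to 92293756, minus strand).

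TARS, threonyl-tRNA synthetase, is the main cytosolic enzyme for threonine. Its values were 711, 714 and 729 CPM in si-SNHG17-1, against 1078, 938 and 941 CPM in si-NC. The si-SNHG17-1 libraries differed little among themselves, and all lay below the lowest si-NC library (log2 fold change −0.46 ± 0.07 SE, edgeR adjusted p = 0.00865). TARS lies on chromosome 5 (33440696 to 33469539, plus strand). Its relative TARSL2, a second cytosolic threonyl-tRNA synthetase gene of low level, had 15.7 to 17.8 CPM in si-SNHG17-1 and 14.7 to 18.8 CPM in si-NC, with groups that overlapped (log2 fold change 0.01 ± 0.14 SE).

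EPRS, a bifunctional enzyme that charges both glutamate and proline tRNAs, stood at 275, 243 and 259 CPM in si-SNHG17-1. In si-NC it had 520.3 CPM in replicate 1, and 369.6 and 348.7 CPM in replicates 2 and 3. The groups were separate, but si-NC replicate 1 lay far above the other control libraries (log2 fold change −0.67 ± 0.15 SE, edgeR adjusted p = 0.0319).

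MARS, methionyl-tRNA synthetase, had 180.0, 186 and 142 CPM in si-SNHG17-1 and 255, 236 and 263 CPM in si-NC (log2 fold change −0.57 ± 0.11 SE, edgeR adjusted p = 0.0209). The exons of MARS share 355 bases with DDIT3, a stress-induced transcription factor gene on the other strand. DDIT3 had 83.2, 47.4 and 38.3 CPM in si-SNHG17-1 and 28.3, 30.9 and 23.3 CPM in si-NC, a log2 fold change of 1.03 ± 0.28 (SE) that was not called (edgeR adjusted p = 0.0565). Whether counting used strand is not given in the sources used here, so reads of the overlap cannot be assigned.

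SARS, seryl-tRNA synthetase, had 227, 221 and 205 CPM in si-SNHG17-1 and 292, 279 and 299 CPM in si-NC (log2 fold change −0.42 ± 0.07 SE, edgeR adjusted p = 0.0128). The 5 remaining called cytosolic genes changed less, with adjusted p between 0.0279 and 0.0414. FARSA, which encodes the catalytic alpha subunit of phenylalanyl-tRNA synthetase, averaged 218 ± 27.1 CPM in si-SNHG17-1 and 288 ± 6.05 CPM in si-NC (SD, n = 3 each; log2 fold change −0.40 ± 0.09 SE). FARSB, the beta subunit of the same enzyme, averaged 119 ± 8.79 CPM in si-SNHG17-1 and 140 ± 7.59 CPM in si-NC, with no overlap, but was not called (−0.23 ± 0.09 SE, edgeR adjusted p = 0.130). CARS, cysteinyl-tRNA synthetase, averaged 87.2 ± 7.85 CPM in si-SNHG17-1 and 115 ± 7.18 CPM in si-NC (−0.40 ± 0.09 SE). GARS, glycyl-tRNA synthetase, averaged 406 ± 39.4 CPM in si-SNHG17-1 and 533 ± 23.0 CPM in si-NC (−0.39 ± 0.08 SE). WARS, the tryptophanyl enzyme also known as an interferon-induced gene, averaged 261 ± 23.0 CPM in si-SNHG17-1 and 331 ± 4.63 CPM in si-NC (−0.34 ± 0.08 SE). VARS, valyl-tRNA synthetase, was 309 ± 11.1 CPM in si-SNHG17-1 and 368 ± 8.90 CPM in si-NC (−0.25 ± 0.06 SE). In all 12 called cytosolic genes, each si-SNHG17-1 library was below each si-NC library, an order that the call itself makes likely. Among all genes tested, 17.3% were so ordered.

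**Figure D2:**
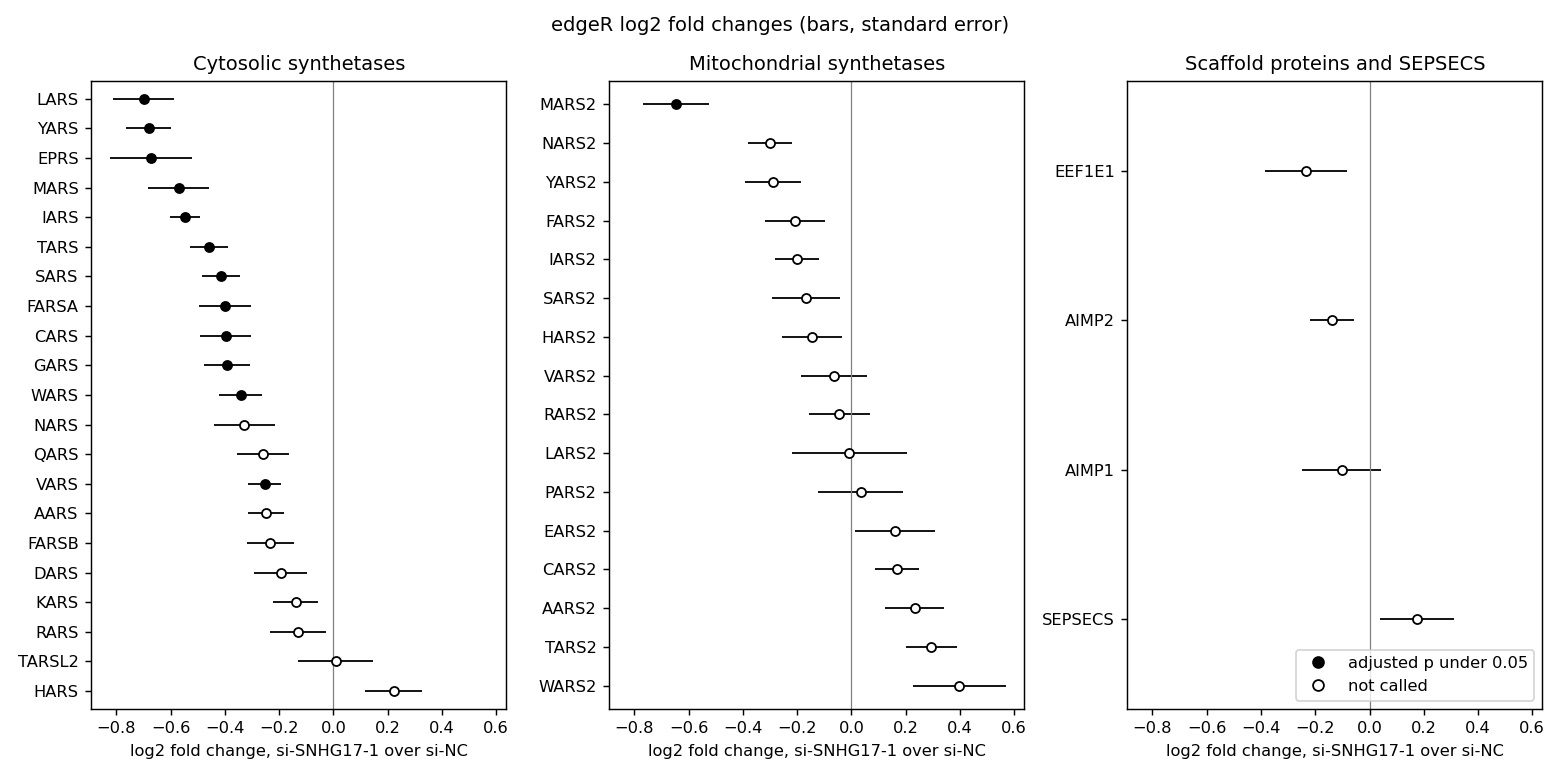
Log2 fold change of si-SNHG17-1 over si-NC with its standard error for each gene, from edgeR; filled points have an adjusted p under 0.05. The 12 filled cytosolic points lie between −0.70 and −0.25, and MARS2 at −0.65 is the only filled mitochondrial point.

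The other 9 cytosolic genes were not called. AARS, alanyl-tRNA synthetase, just missed the threshold, with 718, 704 and 640 CPM in si-SNHG17-1, against 838, 780.1 and 832 CPM in si-NC (log2 fold change −0.25 ± 0.07 SE, edgeR adjusted p = 0.0544). All its si-SNHG17-1 libraries were lower. NARS, asparaginyl-tRNA synthetase, had the largest change among those not called (−0.33 ± 0.11 SE), with 164, 180.0 and 213.1 CPM in si-SNHG17-1 and 240.5, 212.8 and 245 CPM in si-NC. Only si-SNHG17-1 replicate 3 reached into the si-NC range. QARS, glutaminyl-tRNA synthetase, had a log2 fold change of −0.26 ± 0.10 (SE), DARS (aspartate) of −0.20 ± 0.10, KARS (lysine) of −0.14 ± 0.08 and RARS (arginine) of −0.13 ± 0.10. HARS, histidyl-tRNA synthetase, had the highest log2 fold change among cytosolic genes (0.22 ± 0.11 SE, edgeR adjusted p = 0.231), with 63.4, 74.9 and 75.0 CPM in si-SNHG17-1 and 64.1, 63.5 and 55.2 CPM in si-NC.

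With a library left out, 7, 7 and 6 of the 21 cytosolic genes were called lower without si-NC replicates 1, 2 and 3, and 4, 6 and 5 without si-SNHG17-1 replicates 1, 2 and 3. All genes called lower fell as well, to between 1.36% and 3.64% of genes tested, and LARS, YARS, IARS and TARS were the 4 synthetase genes that kept their call in all 6 of these fits. MARS kept it in 4 (not when si-SNHG17-1 replicate 1 or si-NC replicate 3 was left out), EPRS and SARS in 3 (lost without any one si-SNHG17-1 library) and FARSA in 1 (that without si-SNHG17-1 replicate 2). CARS, GARS, WARS and VARS kept it in none, with adjusted p of up to 0.176 (VARS, without si-SNHG17-1 replicate 1).

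Among groups of cytosolic genes that are known to share a mechanism, 10 of 12 genes often listed as ATF4 targets fell (AARS and NARS were the others), against 2 of the 9 other cytosolic genes (FARSA and VARS). The median log2 fold change was −0.44 in the first group and −0.20 in the second. By enzyme class, which reflects the fold of the catalytic domain, 7 of 9 class I genes and 4 of 11 class II genes fell, with medians of −0.40 and −0.25. EPRS, which holds a domain of each class, is in neither count. In the multisynthetase complex, 4 of 11 genes fell (LARS, EPRS, MARS and IARS), and log2 fold changes ran from −0.70 to −0.10 over the 11. Over all genes tested, 5.21% were called lower, and 16.4% of those with at least 100 CPM in si-NC. All 12 genes listed as ATF4 targets reached that level. DARS, HARS and TARSL2, which are among the 9 other cytosolic genes and in class II, did not. The part of level in these contrasts was not tested. These groups overlap, were chosen with earlier results of these data known and were not tested against each other.

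The promoters of several cytosolic genes held the sequence to which ATF4 is known to bind. The core of the C/EBP-ATF response element, TGATGNAA, was searched on both strands from 250 bases before to 50 bases after each RefSeq start. It was found in 7 of the 16 cytosolic genes with a promoter sequence (43.8%), in 1 of 14 mitochondrial genes (YARS2), in 0 of 3 scaffold genes and in 4.46% of all 27305 genes with such a sequence. The promoters of 9 members, among them LARS and YARS, were not analysed here. The windows around the word are shown for the 7 cytosolic genes because they share it, in 6 of them close to the start. They are from RefSeq on GRCh38.p14, read 5′ to 3′ on the strand of the gene, with the word in capitals. TTGCATCA and TTTCATCA are the word read on the other strand.
AARS (chr16:70289675-70289704, minus strand): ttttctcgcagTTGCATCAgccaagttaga
CARS (chr11:3057407-3057436, minus strand): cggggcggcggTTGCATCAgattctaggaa
GARS (chr7:30594834-30594863, plus strand): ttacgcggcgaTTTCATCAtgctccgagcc
IARS (chr9:92293692-92293721, minus strand): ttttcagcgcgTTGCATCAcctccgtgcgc
MARS (chr12:57488053-57488082, plus strand): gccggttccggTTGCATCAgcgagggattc
NARS (chr18:57621804-57621833, minus strand): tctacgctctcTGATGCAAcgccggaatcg
TARS (chr5:33440956-33440985, plus strand): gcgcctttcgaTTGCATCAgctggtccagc

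In 6 of these 7 genes the word carried a C at its free position, and in GARS it carried an A. It began 2 to 33 bases before an annotated start in CARS, MARS, IARS and GARS, 187 bases before it in AARS, and 2 and 14 bases after it in TARS and NARS. Of these 7 genes 5 fell (CARS, GARS, IARS, MARS and TARS), with a median log2 fold change of −0.40 over all 7. Of the 9 cytosolic genes whose promoter did not hold the word, 4 fell (EPRS, SARS, FARSA and WARS), with a median of −0.26. Of the 5 cytosolic genes without a promoter sequence, 3 fell (LARS, YARS and VARS), with a median of −0.25. Over all genes tested, 5.21% were called lower, and the 3 sets were not tested against each other. A match is a string of letters in a window and does not show that a factor binds there.

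**Figure D3:**
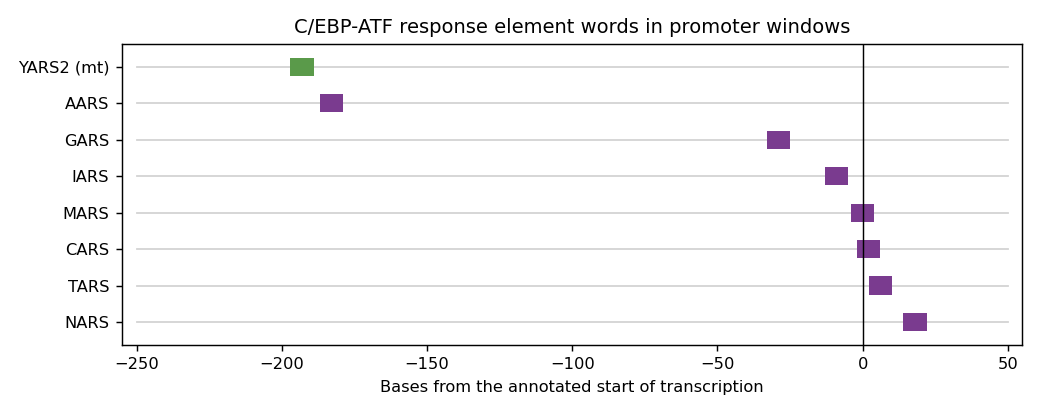
Position of the 8-base response element word in the promoter window of each gene that holds it, in bases from the annotated start, with windows as grey lines; purple marks cytosolic genes and green the mitochondrial gene. In 6 of the 7 cytosolic genes the word lies within 33 bases of the start.

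Mitochondrial synthetase genes had log2 fold changes of both signs, between −0.65 and 0.40, and 10 of 17 were negative, beside 50.2% of all genes tested. MARS2, mitochondrial methionyl-tRNA synthetase, was the one that fell. It had 20.8, 21.0 and 18.2 CPM in si-SNHG17-1 and 28.5, 33.0 and 32.4 CPM in si-NC. The groups were clearly separate (log2 fold change −0.65 ± 0.12 SE, edgeR adjusted p = 0.0184), but the call was kept in only 1 of 6 fits with a library left out, that without si-NC replicate 1. MARS2 lies on chromosome 2 (197705369 to 197708387, plus strand). Its promoter is shown because it held the E-box word CACGTG, in capitals here, which begins 11 bases before the start. The E-box is bound by MYC and related factors, and this word was in 8.77% of all genes with a promoter sequence. Among members it was in 3 of 14 mitochondrial genes (CARS2, EARS2 and MARS2), in 1 of 16 cytosolic genes (IARS) and in 1 of 3 scaffold genes (AIMP2). Of these 5 genes, MARS2 and IARS fell, while CARS2, EARS2 and AIMP2 were not called, with log2 fold changes of 0.17, 0.16 and −0.14.
MARS2 (chr2:197705347-197705374, plus strand): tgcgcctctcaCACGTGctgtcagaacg

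The largest positive log2 fold changes were those of WARS2 (tryptophan) and TARS2 (threonine). WARS2 had 21.0, 21.8 and 27.6 CPM in si-SNHG17-1 and 15.2, 20.8 and 17.5 CPM in si-NC, a log2 fold change of 0.40 ± 0.17 (SE; edgeR adjusted p = 0.183). TARS2 had 63.6, 68.3 and 63.3 CPM in si-SNHG17-1, against 54.7, 48.0 and 56.5 CPM in si-NC (0.29 ± 0.10 SE, edgeR adjusted p = 0.0950). Neither passed the test, although the groups did not overlap in either gene. CARS2 also had all si-SNHG17-1 libraries above all si-NC libraries (0.17 ± 0.08), as did 4 of the 17 mitochondrial genes and 16.4% of all genes tested. On the lower side, NARS2 had 57.9, 56.2 and 53.8 CPM in si-SNHG17-1 and 67.8, 72.2 and 66.9 CPM in si-NC (−0.30 ± 0.08 SE, edgeR adjusted p = 0.0580). YARS2, FARS2 and IARS2 likewise had every si-SNHG17-1 library below every si-NC library without a call (log2 fold changes of −0.29, −0.21 and −0.20). With MARS2 and NARS2 that makes 5 of 17 so ordered, beside 17.3% of all genes tested and 15 of 21 cytosolic genes.

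The other mitochondrial genes reported here had groups that overlapped. AARS2 and EARS2 had log2 fold changes of 0.23 ± 0.11 and 0.16 ± 0.15 (SE), and PARS2, RARS2 and VARS2 lay between −0.065 and 0.034. SARS2 and HARS2 were at −0.17 ± 0.12 and −0.15 ± 0.11. LARS2 had 50.3, 62.6 and 49.7 CPM in si-SNHG17-1 and 44.3, 45.2 and 74.1 CPM in si-NC. Its control libraries disagreed, with si-NC replicate 3 well above the other 2, and the log2 fold change was −0.01 ± 0.21 (SE) with all libraries and 0.28 without si-NC replicate 3.

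Comparing the cytosolic and the mitochondrial enzyme for the same amino acid within each library removes the scaling between libraries. In 18 such pairs, 16 had a lower log2 fold change for the cytosolic gene than for the mitochondrial gene. EPRS was paired with both EARS2 and PARS2, and FARS2 with both FARSA and FARSB, so the pairs were not all separate. The count ratio of TARS to TARS2 was 11.2, 10.5 and 11.5 in si-SNHG17-1, against 19.7, 19.5 and 16.7 in si-NC. That of WARS to WARS2 was 11.3, 13.0 and 9.48 in si-SNHG17-1 and 21.5, 16.0 and 19.1 in si-NC. Ratios of EPRS to EARS2 were 8.15, 7.24 and 5.97 in si-SNHG17-1 and 15.6, 12.8 and 9.48 in si-NC. In each of these pairs every si-SNHG17-1 ratio was below every si-NC ratio.

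CARS and CARS2 had nearly equal counts after si-SNHG17-1, with ratios of 0.987, 1.02 and 0.866, and ratios of 1.62, 1.36 and 1.29 in si-NC. Over the 18 pairs the ratio was lower in all si-SNHG17-1 libraries in 11 pairs, higher in all of them in 1 and overlapping in 6. When any tested gene was set over each mitochondrial synthetase gene, 14.3% of ratios were ordered lower and 18.9% higher. The pair ordered the other way was HARS to HARS2, with ratios of 2.06, 2.28 and 2.16 in si-SNHG17-1 and 1.60, 1.88 and 1.57 in si-NC. These neighbours on chromosome 5 are read in opposite directions from a shared region and overlap by 437 exonic bases. MARS and MARS2 fell together, so their ratio was 8.67, 8.87 and 7.81 in si-SNHG17-1 and 8.98, 7.17 and 8.13 in si-NC. For each of the 12 separated pairs the exact two-sided permutation test gave p = 0.1, the smallest that 3 against 3 libraries allow, and 0.15 after Benjamini-Hochberg adjustment over the 18 pairs.

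**Figure D4:**
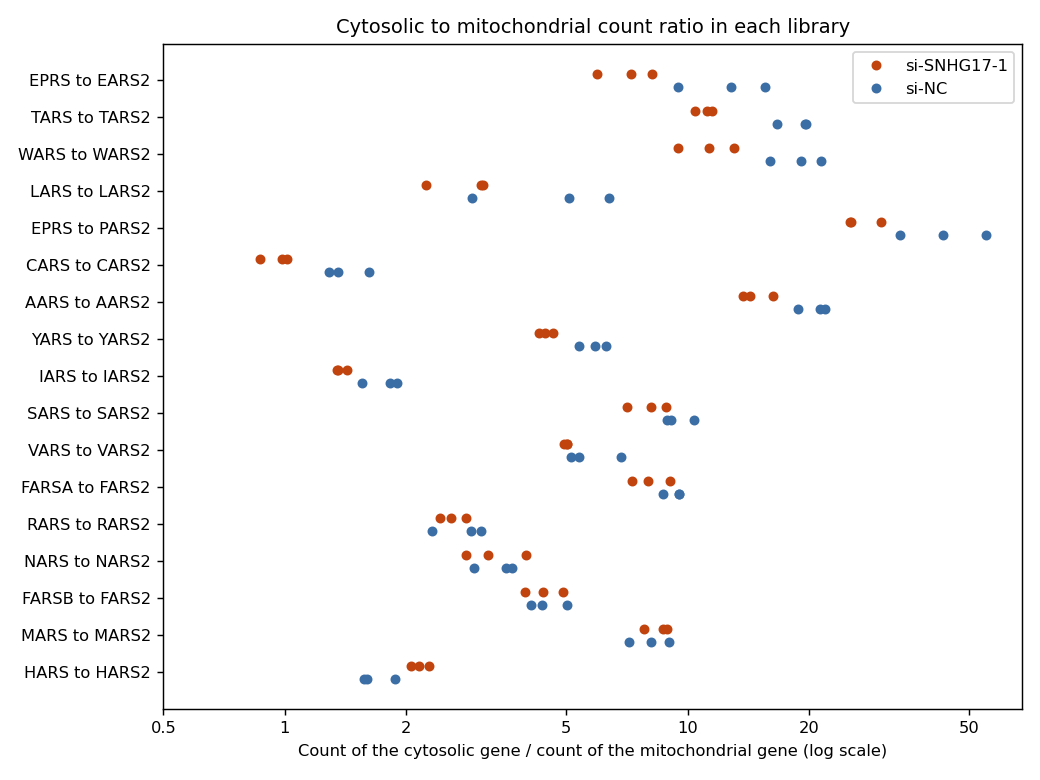
Count of the cytosolic gene divided by the count of the mitochondrial gene for the same amino acid in each library, on a log scale; every point is a library. The si-SNHG17-1 points lie left of all si-NC points in 10 of the 17 pairs drawn and right of them for HARS to HARS2.

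The scaffold proteins of the multisynthetase complex and SEPSECS were not called. AIMP2, which bridges several synthetases, had 77.9, 74.4 and 81.7 CPM in si-SNHG17-1 and 82.2, 85.0 and 90.3 CPM in si-NC (log2 fold change −0.14 ± 0.08 SE, edgeR adjusted p = 0.324). A narrow margin separated the groups. AIMP1 and EEF1E1 had log2 fold changes of −0.10 ± 0.15 and −0.23 ± 0.15 (SE), and SEPSECS of 0.17 ± 0.14, all with overlapping groups.

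Per kilobase of exon, which allows levels of different genes to be compared, cytosolic enzymes were mostly the more abundant ones. AARS stood highest, at 153 CPM per kilobase in si-SNHG17-1 and 182 in si-NC, followed by TARS at 126 in si-SNHG17-1 and 172 in si-NC and by GARS at 97.8 in si-SNHG17-1 and 128 in si-NC. In si-NC, 10 of the 11 genes with the highest level per kilobase were cytosolic, and the exception was IARS2 at 62.2 CPM per kilobase in si-SNHG17-1 and 71.5 in si-NC. At the low end, TARSL2 had 3.69 CPM per kilobase in si-SNHG17-1 and 3.67 in si-NC, and SEPSECS had 2.68 in si-SNHG17-1 and 2.38 in si-NC. MARS2 had 6.62 CPM per kilobase in si-SNHG17-1 and 10.4 in si-NC. Exon lengths join all annotated transcripts, so genes with long rare exons are placed too low.

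**Figure D5:**
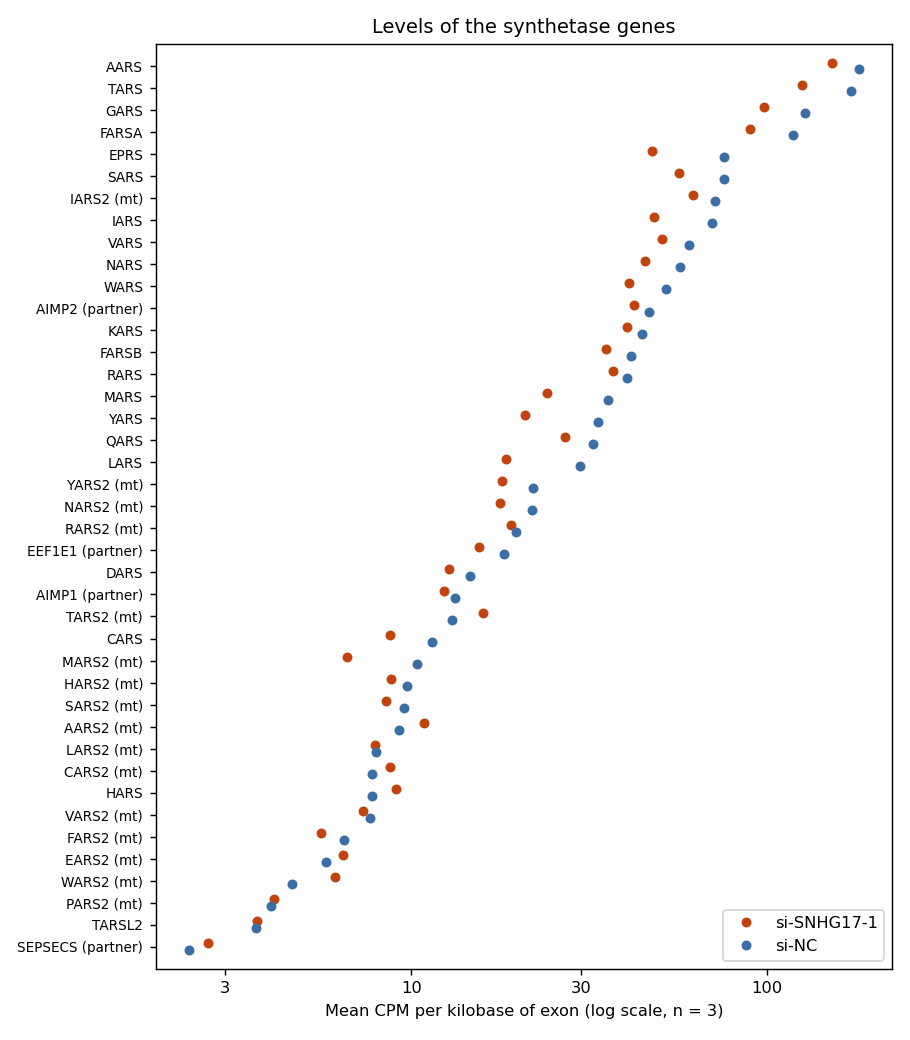
Mean level of each synthetase gene in CPM per kilobase of annotated exon (log scale, 3 libraries per group), ordered by the si-NC level; mitochondrial genes carry (mt) and scaffold genes and SEPSECS carry (partner). AARS, TARS and GARS are the highest, and SEPSECS at 2.68 in si-SNHG17-1 and 2.38 in si-NC is the lowest.

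Genes that act before or after tRNA charging were mostly not called. Of 23 factors that deliver or proofread charged tRNAs, 4 fell and 1 rose, and the median log2 fold change was −0.11. The share called lower was 17.4%, beside 5.21% of all genes tested. DTD1, which removes D-amino acids from mischarged tRNAs, had 31.7, 31.5 and 32.0 CPM in si-SNHG17-1 and 46.9, 55.9 and 59.1 CPM in si-NC (log2 fold change −0.77 ± 0.11 SE, edgeR adjusted p = 0.00799). The elongation factor subunit gene EEF1B2 fell by 0.42 on the log2 scale, TUFM, the mitochondrial elongation factor that carries charged tRNAs, by 0.33, and XPOT, the nuclear exporter of tRNAs, by 0.23. EEF1A2, an isoform of the factor that brings charged tRNAs to the ribosome, rose (0.32 ± 0.08 SE, edgeR adjusted p = 0.0494). It averaged 168 CPM in si-SNHG17-1 and 134 CPM in si-NC. EEF1A1, the isoform of far higher level, averaged 5332 CPM in si-SNHG17-1 and 7295 CPM in si-NC. Its si-SNHG17-1 libraries were all lower, but it was not called (−0.45 ± 0.13 SE, edgeR adjusted p = 0.0626).

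Of 90 genes of tRNA maturation and modification, 5 fell and 1 rose, with a median of −0.07 and a share of 5.56% called lower, close to the 5.21% of all genes. Those that fell were the pseudouridine synthase gene PUS7 (−0.79 ± 0.12 SE), the splicing endonuclease subunit TSEN34 (−0.49 ± 0.08 SE), CDKAL1 (−0.60), ELP2 (−0.33) and RPP40 (−0.50), and TYW5, a hydroxylase of a modified base in phenylalanine tRNA, rose (0.76 ± 0.13 SE). Another list held 28 genes of RNA polymerase III, which transcribes tRNA genes, and of factors that act with it. In that list GTF3C4, GTF3C2 and POLR3A fell (−0.41, −0.47 and −0.31) and none was called higher. The share called lower was 10.7%, beside 5.21% of all genes. Signs were mixed, with 11 of the 28 log2 fold changes positive and a median of −0.08.

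Of 35 genes that sense uncharged tRNA or belong to the ATF4 amino acid response, 11 fell (31.4%) and 5 rose. Over all genes tested, 5.21% were called lower and 5.25% higher. Among those with at least 100 CPM in si-NC, 16.4% were called lower. ATF4 itself stood at 337, 343 and 330 CPM in si-SNHG17-1 and at 283, 291 and 338 CPM in si-NC, with overlapping groups (log2 fold change 0.15 ± 0.08 SE, edgeR adjusted p = 0.295). EIF2AK4, the kinase GCN2 that binds uncharged tRNA, was not called either (0.09 ± 0.10 SE). ASNS, which makes asparagine and was picked out here after its values were seen, had 78.4, 58.3 and 44.2 CPM in si-SNHG17-1 and 138, 143 and 159 CPM in si-NC. ASNS fell, with a log2 fold change below that of every synthetase gene (−1.28 ± 0.19 SE, edgeR adjusted p = 0.00873). The amino acid transporter gene SLC7A5 and VLDLR also fell, by 0.61 and 1.12 on the log2 scale, while TRIB3 and SESN2, both known to be induced by ATF4, rose by 1.24 and 1.26.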

How the data were processed

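The deposited table held raw counts per gene, which the authors had not normalised, per the file headers. Reads were aligned with HISAT2 to GRCh38, per the submitters' processing notes, and the sources used here name no counting program, annotation or strand setting.

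The whole table was fitted with edgeR 4.0.16 in R 4.3.3: filterByExpr (minimum count 10, total 15), TMM scaling and the quasi-likelihood F test without a block, tested on simulated data. SE was |log2 fold change| over the root of F. All 6 libraries were used, since none was a copy of another (chi-square over degrees of freedom 24.6 to 50.4 between replicates). The floor of 3 counts was 0.0712 to 0.0977 CPM.

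Exon lengths and overlaps came from GENCODE 29, whose coordinates matched 38 of the 42 members. RefSeq promoters matched 33. Alternatives were DESeq2 1.42.0, limma-voom (limma 3.58.1), other scalings and filters, a replicate block and each library left out. Members, gene lists and the rule for naming genes (called members, separate groups with an absolute log2 fold change of at least 0.3, extremes of each role, 2 called genes per direction in other lists) were chosen with earlier results of these data known. Further genes were named after their values were seen. The values of 1 mitochondrial gene, which is in the counts, sums and medians, are not reported or drawn here.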

Additional observations from a re-analysis of the deposited data

How the results depend on the processing

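All 13 called members kept a negative log2 fold change in every alternative run, and all 13 kept their call with median-of-ratios size factors, the filter of 1 CPM in 3 libraries, DESeq2 and limma-voom. With total counts only, 8 cytosolic genes were called lower, with a median log2 fold change of −0.30. With no filter beyond a total above 0, 7 cytosolic genes and 627 genes in all were called lower. Fits with a library left out called 4 to 7 cytosolic and 0 to 1 mitochondrial genes lower, and 313 to 694 genes higher and 264 to 705 lower in all. Their medians ranged from −0.39 to −0.27 for cytosolic and from −0.13 to −0.00 for mitochondrial genes. These fits have fewer libraries, and the cause was otherwise not tested. Deviations of libraries with the same number from their group means correlated at −0.037 to −0.015, and those with different numbers at −0.020 to 0.039. These values gave no sign of pairing by number, but what weakly paired libraries would give was not tested. A replicate block called 4 cytosolic and 0 mitochondrial genes lower, and 273 genes higher and 259 lower in all. Members that changed sign were uncalled throughout. LARS2 became 0.034 with total counts only and with limma-voom, 0.028 with the replicate block and 0.004 with the 1 CPM filter. With a library left out, log2 fold changes ranged from −0.138 to 0.277 (without si-NC replicate 3) for LARS2, from −0.172 to 0.023 for AIMP1, from −0.127 to 0.040 for RARS2, from −0.080 to 0.093 for TARSL2 and from −0.050 to 0.127 for PARS2. Genes at low counts, such as PARS2 and TARSL2, are measured with less precision.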
